A study of Mus musculus with 20 samples.

Results

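Integrins are the receptors by which T cells hold on to other cells and to matrix, and transcripts of 10 integrin subunits were followed here in mouse CD8+ T cells given murine interleukin-21 (mIL-21), 21h10, a designed protein that acts through the IL-21 receptor, or no cytokine. The subunits were Itgam, Itgax, Itgal, Itgb2, Itgae, Itga4, Itgb7, Itga1, Itga2 and Itgb1, chosen by name for adhesion and tissue residence. The choice was made with earlier results of these data known. All 10 were found among the 23992 gene symbols of the tables, each represented by its longest transcript. CD8+ T cells were purified by negative selection from spleens of wild-type C57BL/6J mice 6 to 8 weeks old. Every group, the unstimulated cells included, had first been pre-activated for 48 hours with anti-CD3 at 2 µg/mL and anti-CD28 at 1 µg/mL and then rested overnight. Experiment 1 compared cells left unstimulated with cells cultured for 24 hours in 1 of 2 doses, 100 pM and 1 nM, of either cytokine. Experiment 2 did the same with doses of 10 nM and 100 nM and had unstimulated cells of its own. There were 5 groups in either experiment and 2 libraries in every group, 20 in all. The labels call them duplicates and name no animals, so that the p-values measure the spread between these libraries.

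Each integrin is a pair of an alpha and a beta chain, and which chains a T cell makes decides what it can bind. The beta2 chain (Itgb2) pairs with alpha L (Itgal) to form LFA-1, which binds ICAM molecules, with alpha M (Itgam) to form Mac-1 and with alpha X (Itgax, CD11c), the latter a pair best known from myeloid and dendritic cells. The beta7 chain (Itgb7) pairs with alpha E (Itgae, CD103), which binds E-cadherin and retains T cells in epithelia, and with alpha 4 (Itga4), which guides cells to the gut, while the beta1 chain (Itgb1) pairs with alpha 4, with alpha 1 (Itga1, CD49a) and with alpha 2 (Itga2), the alpha 1 and alpha 2 pairs being collagen receptors. IL-21 signals through its receptor and the common gamma chain to STAT factors.

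Reads counted on genes ranged from 36824740 to 94070730 per library in experiment 1 and from 27072917 to 43300094 in experiment 2. Levels are given per library as CPM (read counts scaled by TMM to a common library size), or as RPKM (per kilobase of transcript) where genes are compared with each other. All 10 subunits passed the filter on low counts in both experiments. T cell markers were high in every library, with a summed RPKM of the 7 markers between 1256 and 1909. Unstimulated libraries of the 2 experiments differed in level for several subunits, and since dose and experiment changed together, no value was compared across experiments. In bulk RNA, fewer cells that make a transcript and less transcript per cell cannot be told apart.

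By RPKM, Itgb2, Itgb7, Itgal and Itgb1 were the 4 most abundant of the 10 subunits in every group, each above 42 RPKM in every library. Itgb1 led in unstimulated cells of experiment 1 (mean 145 ± 1.57 RPKM, SD, n = 2), ahead of Itgb2 (95.6 ± 2.23), Itgb7 (75.0 ± 2.00) and Itgal (63.5 ± 0.830). With 21h10 at 1 nM the order had turned to Itgb2 (207.3 ± 13.4 RPKM) and Itgb7 (191.5 ± 14.5), which overlapped each other, then Itgal (66.7 ± 4.25) and Itgb1 (58.0 ± 0.882). Itga4 lay between 12.7 and 34.2 RPKM over the 20 libraries. The collagen receptor chains were scarce, Itga2 at no more than 2.28 RPKM and Itga1 at no more than 0.578 RPKM in any library.

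Itgam (NM_001082960, chromosome 7 from 128062640 to 128118491, GRCm38) rose with both cytokines at every dose, from under 1 CPM in the unstimulated cells of experiment 1. In experiment 1 its level was 0.670 and 0.836 CPM in the unstimulated libraries, 15.9 and 14.6 CPM with mIL-21 at 100 pM and 52.8 and 56.2 CPM with 21h10 at 100 pM. At 1 nM it was 58.1 and 56.6 CPM with mIL-21 and 81.1 and 76.1 CPM with 21h10. No cytokine library came near the unstimulated ones, and mIL-21 at 100 pM lay well below the other 3 treated groups. Against unstimulated cells the log2 fold changes were 4.37 ± 0.11, adjusted p = 8.88e-16 for mIL-21 at 100 pM, 6.21 ± 0.098, adjusted p = 1.89e-18 for 21h10 at 100 pM, 6.28 ± 0.099, adjusted p = 1.97e-18 for mIL-21 at 1 nM and 6.74 ± 0.098, adjusted p = 3.86e-19 for 21h10 at 1 nM. Here and below, errors of log2 fold changes are standard errors and adjusted p-values come from the quasi-likelihood test of edgeR, adjusted after Benjamini and Hochberg over all genes tested.

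In experiment 2 Itgam was 3.15 and 3.08 CPM without cytokine, 108 and 103 CPM with mIL-21 at 10 nM, 100.4 and 105 CPM with 21h10 at 10 nM and 101 and 101 CPM with mIL-21 at 100 nM. With 21h10 at 100 nM it was 42.6 and 53.0 CPM, below every other treated library of that experiment and still above both unstimulated ones. The log2 fold changes against unstimulated cells were 5.08, 5.04, 5.02 and 3.93 in the same order, all past the threshold. Of the exonic bases of this Itgam transcript, 73.7% also belong to the annotated gene Gm49368 on the same strand, so that reads of the 2 cannot be separated here.

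**Figure D1:**
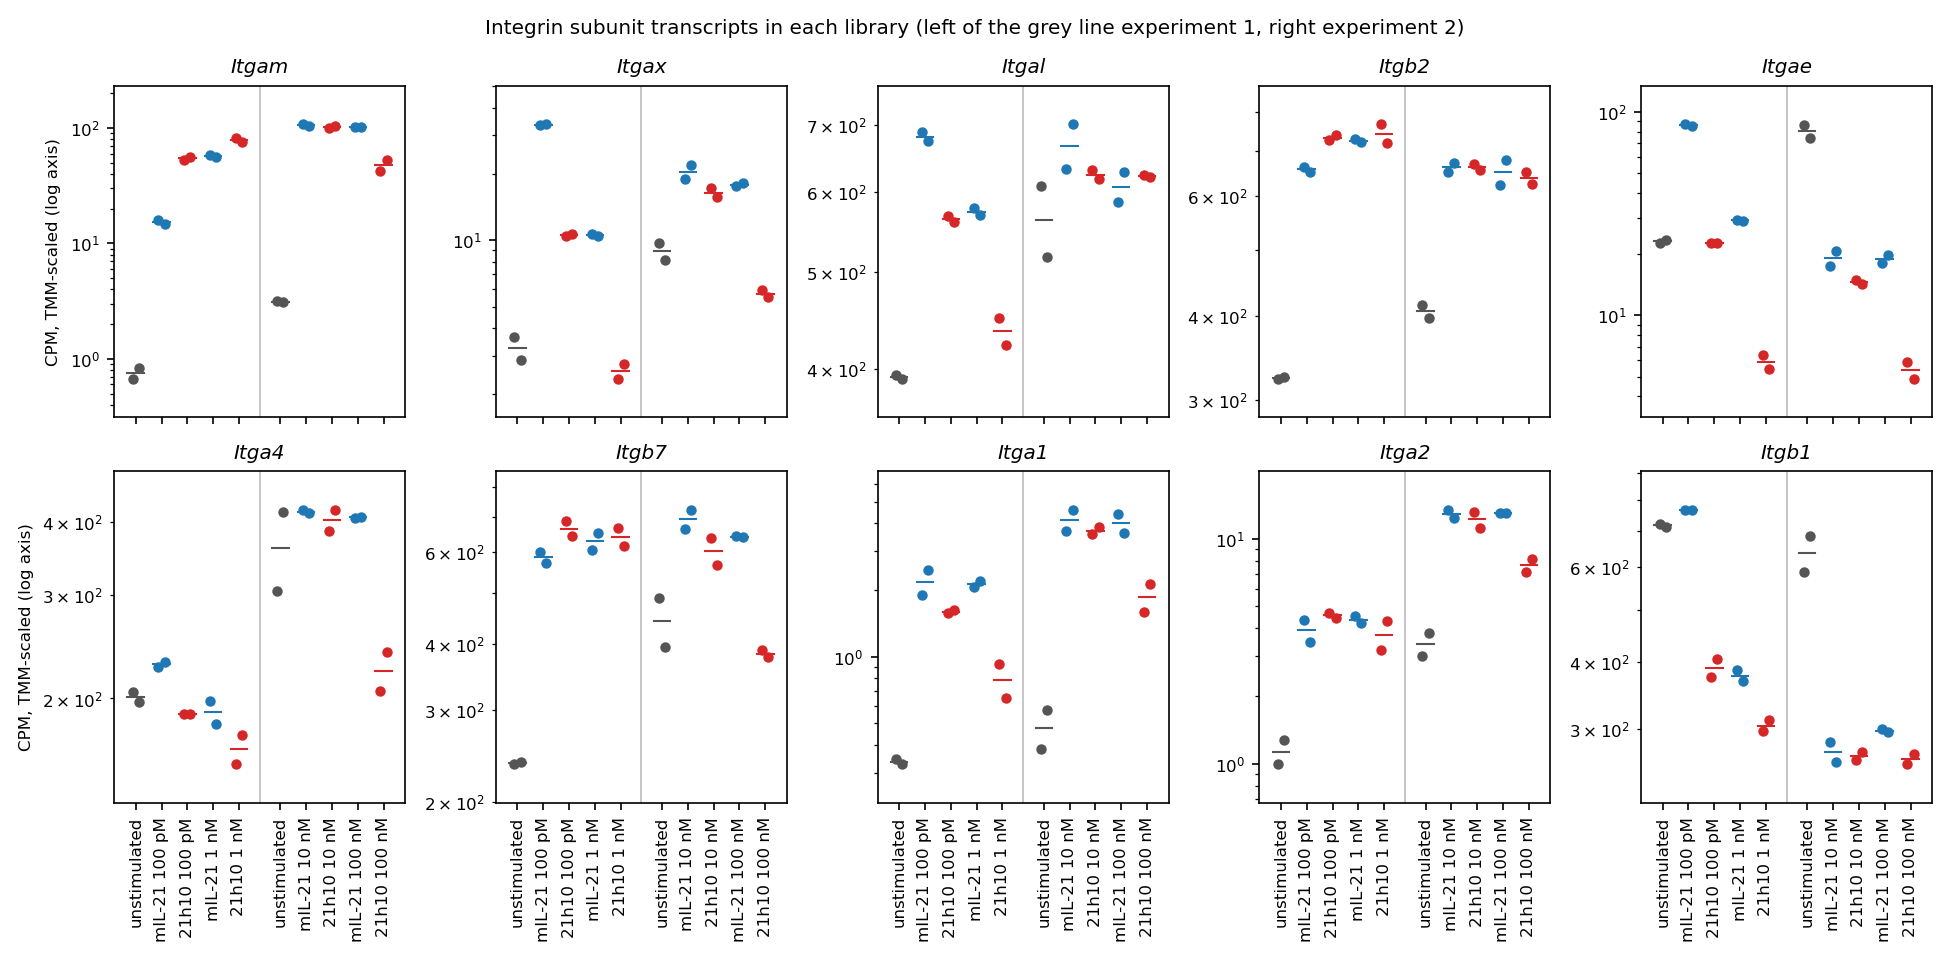
CPM (TMM-scaled, log axis) of the 10 subunits in each library, grouped by cytokine and dose, with experiment 1 left and experiment 2 right of the grey line. Grey points are unstimulated, blue mIL-21 and red 21h10 libraries, and bars mark means of 2 libraries. Itgam rises from below 1 CPM to between 14.6 and 81.1 CPM in experiment 1, and Itgae and Itgax are lower with 21h10 than with mIL-21 at 100 pM, 1 nM and 100 nM.

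Since Itgam and Itgax also mark myeloid and dendritic cells, markers of the cells a negative selection could leave behind were read beside them. The 6 of 7 monocyte and macrophage markers in the tables summed to between 3.43 and 3.78 RPKM in unstimulated cells of experiment 1 and between 14.3 and 21.4 RPKM with cytokine. In experiment 2 the sums were 4.52 to 4.79 and 4.66 to 7.12 RPKM. Cd68, a lysosomal protein, was at between 3.17 and 21.0 RPKM and made up 92.3% to 99.0% of these sums in experiment 1 and 78.5% to 92.1% in experiment 2. Lyz2, Cd14 and Csf1r were at or near 0, with at most 12, 6 and 2 reads in any library. Fcgr3, a receptor for antibody, reached 75 reads and 0.962 RPKM. Cd68 and Fcgr3, the 2 monocyte markers that could be tested in experiment 1, were both higher than in unstimulated cells with mIL-21 at 100 pM (log2 fold changes 1.97 and 1.70), with 21h10 at 100 pM (log2 fold changes 2.64 and 1.22) and with mIL-21 at 1 nM (log2 fold changes 2.50 and 1.28). With 21h10 at 1 nM Cd68 was higher and Fcgr3 had a log2 fold change of 0.52 (adjusted p = 0.215). Between the cytokines Cd68 was higher with 21h10 at 100 pM (0.67), as Itgam was. At 1 nM, where Itgam was higher too, Cd68 did not pass (0.14, adjusted p = 0.115). At 100 nM, where Itgam was lower with 21h10, Cd68 was 8.75 and 10.0 CPM with 21h10 and 5.68 and 6.03 CPM with mIL-21. Fcgr3 did not pass at any of the 4 doses.

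The 4 of 5 neutrophil markers in the tables summed to at most 0.333 RPKM, and S100a8 and S100a9 had 0 reads in all 20 libraries. Dendritic cell markers summed to between 1.00 and 2.16 RPKM in experiment 1, where single markers moved in opposite directions. Zbtb46 (log2 fold change 1.42 at 100 pM and 1.15 at 1 nM) and Flt3 (2.17 and 2.11) were higher with 21h10 than with mIL-21, as Itgam was. H2-Aa was lower with 21h10 at 100 pM (-1.72). Flt3 had at most 95 reads and Zbtb46 238 in any library, and H2-Aa at most 1.72 RPKM. In experiment 2 the dendritic cell markers summed to 1.78 to 2.15 RPKM without and 0.294 to 0.493 RPKM with cytokine, and Cd209a had 0 reads throughout. NK cell markers summed to between 1.05 and 2.97 RPKM in experiment 1 and between 1.79 and 3.37 RPKM in experiment 2. Single markers reached 1.93 (Klra4), 1.48 (Tyrobp), 0.749 (Klra8), 0.265 (Klrb1c) and 0.196 RPKM (Ncr1). With mIL-21 at 100 pM Klra8 and Klra4 were higher than in unstimulated cells (log2 fold changes 1.30 and 0.98). Klra8 was lower with 21h10 than with mIL-21 at 100 pM (-1.16), and Tyrobp at 1 nM (-1.24). The other NK cell markers tested did not pass in these comparisons. B cell markers, mainly Cd79b, summed to 3.97 to 10.5 RPKM in experiment 1 and 3.09 to 8.30 RPKM in experiment 2. CD4 T cell markers stayed at or below 1.55 RPKM and platelet markers at or below 3.60 RPKM. Their part in the Itgam and Itgax values was not tested.

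**Figure D2:**
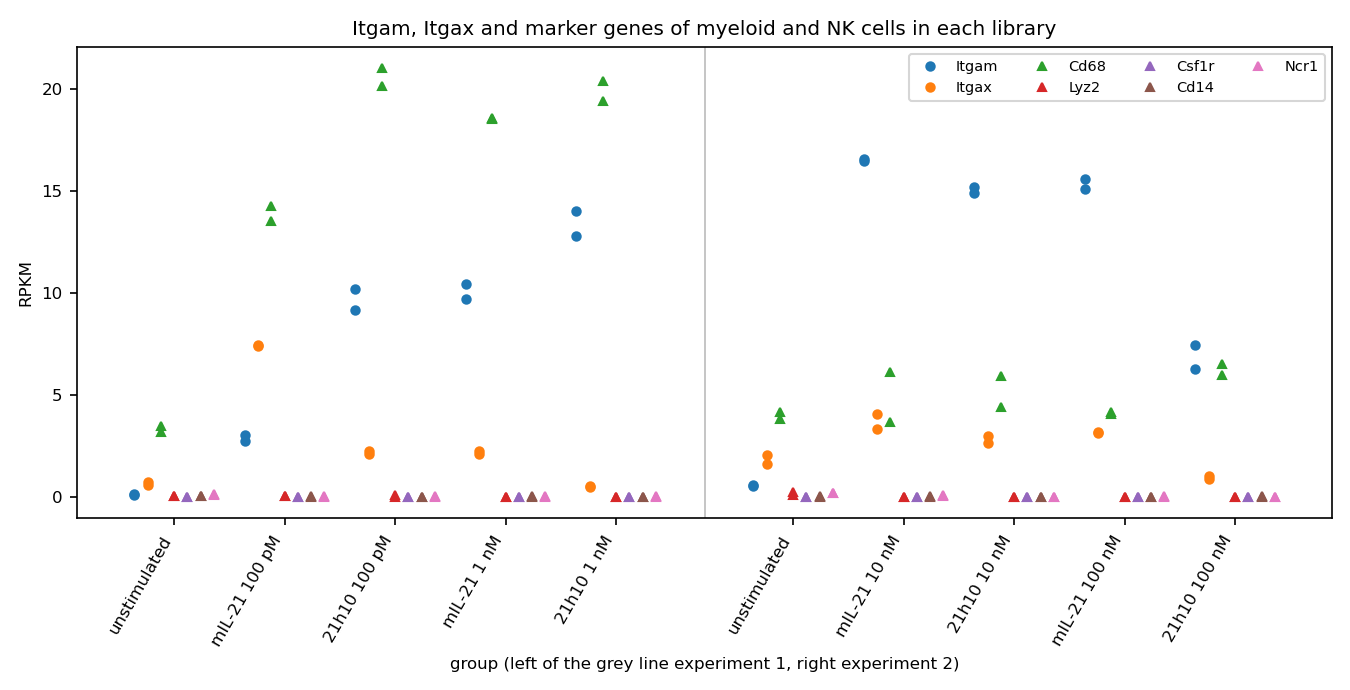
RPKM of Itgam and Itgax (circles) and of the marker genes Cd68, Lyz2, Csf1r, Cd14 and Ncr1 (triangles) in each library, experiment 1 left and experiment 2 right of the grey line. Itgam reaches 16.6 RPKM while Lyz2, Csf1r, Cd14 and Ncr1 stay at or below 0.232 RPKM, and Cd68 lies between 13.5 and 21.0 RPKM in the cytokine libraries of experiment 1.

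Itgax (NM_021334, chromosome 7 from 128129526 to 128150657) starts 11034 bases past the end of Itgam, on the same strand, and followed another course. In experiment 1 it was 3.65 and 2.85 CPM without cytokine, 33.3 and 33.7 CPM with mIL-21 at 100 pM, 10.4 and 10.7 CPM with 21h10 at 100 pM, 10.7 and 10.5 CPM with mIL-21 at 1 nM and 2.35 and 2.75 CPM with 21h10 at 1 nM. The highest level thus belonged to the lowest dose of the native cytokine, the 100 pM group of 21h10 and the 1 nM group of mIL-21 overlapped, and 21h10 at 1 nM lay under the unstimulated libraries. Against unstimulated cells Itgax rose with mIL-21 at 100 pM (log2 fold change 3.33 ± 0.094, adjusted p = 3.00e-15), with 21h10 at 100 pM (1.67) and, to the same extent, at 1 nM of mIL-21 (1.67). It fell with 21h10 at 1 nM (log2 fold change -0.37 ± 0.13, adjusted p = 0.0176). That last call was lost in a fit of the compared groups alone (-0.30, adjusted p = 0.1004) and when replicate 1 of unstimulated cells or replicate 1 of 21h10 1 nM was left out (-0.27 to -0.15, adjusted p from 0.114 to 0.385). The summed B cell markers ran in the same order at both ends of experiment 1, with 9.99 to 10.5 RPKM with mIL-21 at 100 pM, 3.97 to 4.17 RPKM at 1 nM of 21h10 and 6.32 to 7.34 RPKM in the other 3 groups, most of it Cd79b, with at most 44 reads of Ms4a1 and 18 of Pax5 in any library. The summed NK cell markers did so too, with 2.49 to 2.97, 1.05 to 1.19 and 1.60 to 2.17 RPKM. The part of either in the values of Itgax, Itgae and Itgal was not tested.

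In experiment 2 Itgax was 9.74 and 8.18 CPM without cytokine, 18.9 and 21.9 CPM with mIL-21 at 10 nM, 17.2 and 15.7 CPM with 21h10 at 10 nM, 17.7 and 18.1 CPM with mIL-21 at 100 nM and 5.93 and 5.50 CPM with 21h10 at 100 nM. It rose in the first 3 treated groups, with log2 fold changes of 1.19, 0.87 and 1.00, and fell with 21h10 at 100 nM (log2 fold change -0.65 ± 0.15, adjusted p = 0.00177). Stretches with up to 98.0% identity to transcripts of its neighbour Itgad cover 21.2% of the Itgax transcript, so a share of reads could be exchanged, and the group means of Itgad ran from 0.222 to 2.27 CPM against 2.55 to 33.5 CPM for Itgax.

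The promoters of Itgam and Itgax are shown because these neighbours moved apart with dose in the experiment with the lower doses. In the experiment with the higher doses both fell from the lower to the higher dose of 21h10. That of Itga4 is shown because Itga4 fell with them and with Itgae at that highest dose (given below). Itga1, Itga2 and Itgb7 fell there too, so the fall does not single out Itga4. Promoter windows, 250 bases before and 50 after a transcript start, were in the RefSeq table (GRCm38.p6) for 7 of the 10 subunits. In 5 of them that start is the gene start printed here, in Itgax it lies 24 bases and in Itgb7 1470 bases inside the gene. Both strands were searched for TTCNNNGAA (STAT sites), TGTGGT (RUNX sites) and AGGTGTGA (T-box sites), which 8.29%, 16.8% and 1.27% of all 32817 promoters hold. Capitals mark a match. Itgax lies at chr7:128129300-128129599 and Itgam at chr7:128062390-128062689, both on the plus strand, as does Itga4 at chr2:79255176-79255475, each written 5′ to 3′.
Itgam promoter: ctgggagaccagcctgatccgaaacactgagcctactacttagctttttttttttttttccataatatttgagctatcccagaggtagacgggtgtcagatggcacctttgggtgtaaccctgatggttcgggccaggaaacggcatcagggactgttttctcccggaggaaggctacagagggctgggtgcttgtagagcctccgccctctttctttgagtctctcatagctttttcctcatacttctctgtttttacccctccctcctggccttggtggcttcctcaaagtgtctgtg
Itgax promoter: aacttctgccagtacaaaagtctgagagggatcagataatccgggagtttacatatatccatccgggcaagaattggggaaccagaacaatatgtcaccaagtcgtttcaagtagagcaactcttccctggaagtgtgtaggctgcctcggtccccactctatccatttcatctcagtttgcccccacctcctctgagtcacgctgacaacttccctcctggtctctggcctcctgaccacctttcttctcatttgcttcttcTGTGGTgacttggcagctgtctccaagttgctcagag
Itga4 promoter: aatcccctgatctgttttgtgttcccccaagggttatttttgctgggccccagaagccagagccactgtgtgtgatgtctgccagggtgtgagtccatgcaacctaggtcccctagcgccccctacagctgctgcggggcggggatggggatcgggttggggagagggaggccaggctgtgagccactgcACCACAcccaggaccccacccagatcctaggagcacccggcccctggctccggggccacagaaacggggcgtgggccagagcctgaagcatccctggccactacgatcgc

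A RUNX match was found in the Itga4 window, 60 bases before the gene start, and another in the Itgax window, 13 bases after the transcript start of the window and 37 bases after the gene start printed here. The 5 other windows searched, those of Itgam, Itgb1, Itgb7, Itga1 and Itga2, held no match to any of the 3 patterns. Of these only that of Itgam is printed above, so the printed set holds every window with a match. A match is a run of letters and not a binding site.

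Itgae (NM_008399, chromosome 11 from 73090505 to 73147449) changed in both directions. In experiment 1 it was 22.7 and 23.5 CPM without cytokine and 87.0 and 85.3 CPM with mIL-21 at 100 pM, the highest group. It was 22.8 and 22.6 CPM with 21h10 at 100 pM and 29.6 and 29.1 CPM with mIL-21 at 1 nM, closer to the unstimulated level, and 6.38 and 5.46 CPM with 21h10 at 1 nM, the lowest. In order of level the groups ran mIL-21 100 pM, mIL-21 1 nM, unstimulated and 21h10 100 pM together, and 21h10 1 nM, with libraries of the unstimulated and the 21h10 100 pM group overlapping.

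Against unstimulated cells Itgae rose with mIL-21 at 100 pM (log2 fold change 1.90 ± 0.061, adjusted p = 1.23e-14) and at 1 nM (log2 fold change 0.35 ± 0.063, adjusted p = 7.01e-05), and fell with 21h10 at 1 nM (log2 fold change -1.97 ± 0.077, adjusted p = 9.23e-14). With 21h10 at 100 pM the log2 fold change was -0.02 ± 0.062, adjusted p = 0.753, with a 95% interval of -0.15 to 0.11. In experiment 2, where unstimulated cells had 85.7 and 74.7 CPM, all 4 treated groups were lower. They held 17.4 and 20.7 CPM with mIL-21 at 10 nM, 14.999 and 14.2 CPM with 21h10 at 10 nM, 18.0 and 19.9 CPM with mIL-21 at 100 nM and 5.90 and 4.87 CPM with 21h10 at 100 nM. No treated library reached the unstimulated range, and the fall was log2 fold change -3.89 ± 0.14, adjusted p = 2.68e-12 with 21h10 at 100 nM against -2.07, -2.46 and -2.08 in the other groups. The shorter Itgae transcript NM_172944 held 81.2% to 102% of the reads of the longer one.

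Itgb7 (NM_013566, chromosome 15 from 102215994 to 102233405), the beta chain that partners alpha E, moved differently. In experiment 1 Itgb7 was 236 and 239 CPM in unstimulated cells, and the 8 treated libraries lay between 573 and 687 CPM. It rose in all 4 treated groups, with log2 fold changes between 1.31 and 1.49. In experiment 2 it was 491 and 395 CPM without cytokine, 664 and 723 CPM with mIL-21 at 10 nM, 639 and 568 CPM with 21h10 at 10 nM, 643 and 641 CPM with mIL-21 at 100 nM and 389 and 378 CPM with 21h10 at 100 nM. The first 3 treated groups lay above the unstimulated libraries (log2 fold changes 0.65, 0.44 and 0.53), and the last lay below them without passing the threshold (log2 fold change -0.21 ± 0.098, adjusted p = 0.0885). The second of these rises was lost with limma on log2(RPKM + 1) (0.18, adjusted p = 0.255) and with library sizes from mapped reads and no TMM scaling (0.17, adjusted p = 0.215), and the third with limma on log2(RPKM + 1) (0.32, adjusted p = 0.0618). The lower value with 21h10 at 100 nM passed the threshold without the filter on low counts (-0.22, adjusted p = 0.0246), with limma on log2(RPKM + 1) (-0.50, adjusted p = 0.00796), with library sizes from mapped reads and no TMM scaling (-0.51, adjusted p = 0.00116) and when replicate 2 of unstimulated cells was left out (-0.36, adjusted p = 0.00206).

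Itga4 (NM_010576, chromosome 2 from 79255426 to 79333114), which pairs with either beta7 or beta1, changed little in experiment 1. In experiment 1 it was 205.03 and 197 CPM without cytokine, 227 and 231 CPM with mIL-21 at 100 pM 188 and 188 CPM with 21h10 at 100 pM, 198 and 181 CPM with mIL-21 at 1 nM and 154 and 173 CPM with 21h10 at 1 nM. It rose with mIL-21 at 100 pM (log2 fold change 0.18 ± 0.055, adjusted p = 0.00612), a call lost when replicate 2 of unstimulated cells or replicate 2 of mIL-21 100 pM was left out (0.15 to 0.17, adjusted p from 0.0511 to 0.0708), and fell with 21h10 at 1 nM (log2 fold change -0.30 ± 0.056, adjusted p = 0.000107). The groups between these did not pass the threshold. With 21h10 at 100 pM a lower value passed in a fit of the compared groups alone (-0.07, adjusted p = 0.0330) and when either library of 21h10 1 nM was left out (-0.10, adjusted p from 0.0398 to 0.0436). With mIL-21 at 1 nM it passed when replicate 1 of mIL-21 1 nM was left out (-0.14, adjusted p = 0.0472). In experiment 2 the unstimulated libraries differed from each other, at 304 and 416 CPM, and those with 21h10 at 100 nM had 205.99 and 239.6 CPM (log2 fold change -0.69 ± 0.12, adjusted p = 0.000161).

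The other 6 treated libraries had between 386 and 419.8 CPM of Itga4, around the level of the higher unstimulated library. Without that library, replicate 2, their log2 fold changes rose to 0.45 with mIL-21 at 10 nM, 0.40 with 21h10 at 10 nM and, at 100 nM of mIL-21, 0.42, all then past the threshold, and that with mIL-21 at 10 nM also passed without the filter on low counts (0.22, adjusted p = 0.0376). Exons of Cerkl on the opposite strand share 11.5% of the exonic bases of Itga4, and the use of strand in counting is not given in the sources used here.

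The LFA-1 chains were abundant throughout. Itgb2 (NM_008404, chromosome 10 from 77530329 to 77565708) was 322 and 325 CPM in unstimulated cells of experiment 1 and between 652 and 766 CPM in the 8 treated libraries. In experiment 2 it was 415 and 396 CPM without and between 623 and 679.7 CPM with cytokine. All treated libraries lay above the unstimulated ones, and the rise passed the threshold in all 8 comparisons, with log2 fold changes between 0.65 and 1.20. Stretches alike to the transcript of Gm14699 cover 7.68% of Itgb2.

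Itgal (NM_001253872, chromosome 7 from 127296139 to 127335137) rose less. In experiment 1 it was 394 and 391 CPM without cytokine, 689 and 674 CPM with mIL-21 at 100 pM, 568 and 560.3 CPM with 21h10 at 100 pM, 578 and 569 CPM with mIL-21 at 1 nM and 450.2 and 423 CPM with 21h10 at 1 nM. Like Itgax it was highest with mIL-21 at 100 pM (log2 fold change 0.80 ± 0.046, adjusted p = 2.87e-11) and least raised with 21h10 at 1 nM (log2 fold change 0.15 ± 0.045, adjusted p = 0.00537), a call lost with limma on log2(RPKM + 1) (0.07, adjusted p = 0.269) and with library sizes from mapped reads and no TMM scaling (0.07, adjusted p = 0.261). In experiment 2 the libraries without cytokine had 609 and 518 CPM and the treated libraries between 587 and 701 CPM. There mIL-21 at 10 nM alone passed the threshold (log2 fold change 0.24 ± 0.088, adjusted p = 0.0334).

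That call was lost with limma on log2(RPKM + 1) (0.07, adjusted p = 0.631), in a fit of the compared groups alone (0.27, adjusted p = 0.105), with library sizes from mapped reads and no TMM scaling (0.06, adjusted p = 0.638) and when replicate 2 of unstimulated cells, replicate 2 of mIL-21 10 nM, replicate 1 of 21h10 10 nM or either library of 21h10 100 nM was left out (0.13 to 0.24, adjusted p from 0.0518 to 0.243). Without replicate 1 of the unstimulated cells, the other 3 groups of experiment 2 also passed, with log2 fold changes of 0.27 for 21h10 at 10 nM, 0.23 for mIL-21 at 100 nM and 0.26 for 21h10 at 100 nM.

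Itgb1 (NM_010578, chromosome 8 from 128685654 to 128733579) was the subunit that most often fell. In experiment 1 it was 722 and 714 CPM in unstimulated cells, 768 and 768 CPM with mIL-21 at 100 pM, 375 and 405 CPM with 21h10 at 100 pM, 387 and 368 CPM with mIL-21 at 1 nM and 297 and 312 CPM with 21h10 at 1 nM. The mIL-21 100 pM libraries lay just above the unstimulated ones (log2 fold change 0.097 ± 0.049, adjusted p = 0.0799), a difference that passed the threshold with DESeq2 (0.11, adjusted p = 0.0344), with limma on log2(RPKM + 1) (0.17, adjusted p = 0.0215), in a fit of the compared groups alone (0.13, adjusted p = 4.76e-06), with library sizes from mapped reads and no TMM scaling (0.18, adjusted p = 0.00891) and when replicate 1 of mIL-21 1 nM or replicate 2 of 21h10 1 nM was left out (0.097 to 0.11, adjusted p from 0.0420 to 0.0463). The other 3 groups lay below both with no overlap. Itgb1 fell, with log2 fold changes of -0.88 with 21h10 at 100 pM, -0.93 with mIL-21 at 1 nM and, at 1 nM of 21h10, -1.24.

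In experiment 2 Itgb1 was 589 and 687 CPM without cytokine and between 258 and 300.2 CPM in the 8 treated libraries, which formed 1 narrow band whatever the cytokine or dose. The log2 fold changes there ran from -1.27 to -1.10, all past the threshold.

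The alpha chains of its collagen receptors moved the other way. Itga1 (NM_001033228, chromosome 13 from 114958079 to 115101964) had only 32 and 18 reads in the unstimulated libraries of experiment 1, or 0.346 and 0.327 CPM. It was 1.90 and 2.46 CPM with mIL-21 at 100 pM, 1.57 and 1.63 CPM with 21h10 at 100 pM, 2.07 and 2.203 CPM with mIL-21 at 1 nM and 0.923 and 0.652 CPM with 21h10 at 1 nM. Every treated library was above both unstimulated ones, with 21h10 at 1 nM the nearest. In experiment 2 it was 0.385 and 0.573 CPM without cytokine, 1.59 and 2.12 CPM with 21h10 at 100 nM and between 3.56 and 4.61 CPM in the other 6 treated libraries. The rise passed the threshold in all 8 comparisons, from a log2 fold change of 1.18 ± 0.29, adjusted p = 0.00127 with 21h10 at 1 nM to 3.12 ± 0.30, adjusted p = 4.68e-07 with mIL-21 at 10 nM.

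Itga2 (NM_008396, chromosome 13 from 114833081 to 114932100) lies 25978 bases from Itga1. It was 0.994 and 1.27 CPM without cytokine in experiment 1 and between 3.19 and 4.68 CPM with cytokine, where the 4 treated groups overlapped in part. In experiment 2 it was 3.01 and 3.82 CPM without cytokine, 7.09 and 8.14 CPM with 21h10 at 100 nM and between 11.2 and 13.5 CPM in the other treated libraries. All 8 comparisons passed, with log2 fold changes between 1.16 and 2.04. In the annotation, 6.25% of the exonic bases of Itga1 also belong to Gm49395 on the same strand.

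Counted over the 10 subunits, more rose than fell against unstimulated cells in every treated group of experiment 1. In experiment 2 the same was true of every treated group but 21h10 at 100 nM, with 4 higher and 4 lower. These counts are printed beside the share of all tested genes that passed the threshold in the same direction, and comparisons within an experiment share their unstimulated libraries. Because the subunits and lists were chosen with earlier results of these data known, counts here and below only describe them. A count beyond the share is no test of the set. With mIL-21 at 100 pM, 9 subunits were higher and 0 lower, where 38.3% of all genes were higher and 39.4% lower. With 21h10 at 100 pM, 7 subunits were higher and 1 lower, where 40.2% of all genes were higher and 41.3% lower. With mIL-21 at 1 nM, 8 subunits were higher and 1 lower, where 39.9% of all genes were higher and 40.3% lower. With 21h10 at 1 nM, 6 subunits were higher and 4 lower, where 38.3% of all genes were higher and 42.1% lower. With mIL-21 at 10 nM, 7 subunits were higher and 2 lower, where 22.5% of all genes were higher and 23.7% lower. With 21h10 at 10 nM, 6 subunits were higher and 2 lower, where 25.2% of all genes were higher and 24.9% lower. With mIL-21 at 100 nM, 6 subunits were higher and 2 lower, where 22.5% of all genes were higher and 23.7% lower. With 21h10 at 100 nM, 4 subunits were higher and 4 lower, where 25.0% of all genes were higher and 25.8% lower. The median log2 fold change of the 10 ran from 1.57 with mIL-21 at 100 pM to 0.66 with 21h10 at 1 nM in experiment 1, and from 0.68 with mIL-21 at 10 nM to -0.03 with 21h10 at 100 nM in experiment 2. The medians over all genes tested lay between -0.04 and 0.00. Itgam, Itgb2, Itga1 and Itga2 were higher in all 8 comparisons, Itgb1 was lower in 7, and 3 subunits, Itgae, Itgax and Itga4, passed the threshold in both directions.

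**Figure D3:**
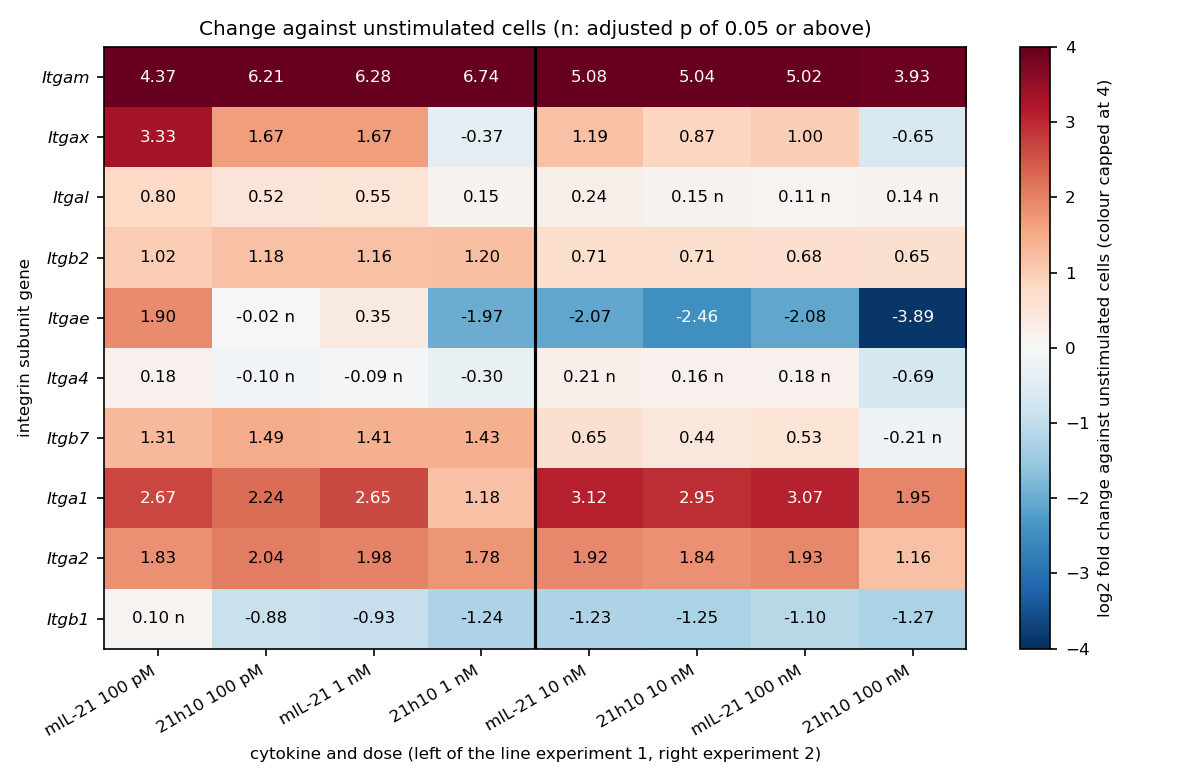
Log2 fold change of each subunit (rows) against the unstimulated cells of its experiment for each cytokine and dose (columns), red higher and blue lower, with n marking values that did not pass an adjusted p of 0.05. Itgam is the reddest row throughout, from 3.93 to 6.74. Itgae reaches 1.90 with mIL-21 at 100 pM in experiment 1 and -3.89 with 21h10 at 100 nM in experiment 2. These values have different baselines, with means of 23.1 and 80.2 CPM of Itgae in the unstimulated cells of experiments 1 and 2.

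The mimic and the native cytokine were then compared at the same dose. At 100 pM, 3 subunits were higher with 21h10 and 5 lower, where 19.6% of all genes were higher and 19.0% lower. Itgam was higher with 21h10 (log2 fold change 1.84 ± 0.067, adjusted p = 2.16e-12, from 15.2 ± 0.883 to 54.5 ± 2.38 CPM, SD, n = 2). Itgb7 (log2 fold change 0.18 ± 0.054, adjusted p = 0.0134) and Itgb2 (log2 fold change 0.16 ± 0.045, adjusted p = 0.0121) were higher by small amounts. Lower with 21h10 were Itgae (log2 fold change -1.92 ± 0.061, adjusted p = 4.12e-13), Itgax (log2 fold change -1.67 ± 0.082, adjusted p = 9.23e-11), Itgb1 (log2 fold change -0.98 ± 0.049, adjusted p = 1.16e-10), Itga4 (log2 fold change -0.28 ± 0.056, adjusted p = 0.000701) and Itgal (log2 fold change -0.27 ± 0.045, adjusted p = 0.000139). Itga1 (log2 fold change -0.43 ± 0.18, adjusted p = 0.0762, 95% interval -0.82 to -0.04) and Itga2 (log2 fold change 0.20 ± 0.15, adjusted p = 0.294, -0.11 to 0.51) did not pass.

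Both small rises at 100 pM depended on the scaling of the libraries. That of Itgb7 was lost with limma on log2(RPKM + 1) (0.08, adjusted p = 0.293), with library sizes from mapped reads and no TMM scaling (0.08, adjusted p = 0.310) and when replicate 2 of mIL-21 100 pM or replicate 1 of 21h10 100 pM was left out (0.13 to 0.15, adjusted p from 0.147 to 0.152). That of Itgb2 was lost with limma on log2(RPKM + 1) (0.05, adjusted p = 0.482), with library sizes from mapped reads and no TMM scaling (0.05, adjusted p = 0.497) and when either library of mIL-21 100 pM or replicate 2 of 21h10 100 pM was left out (0.14 to 0.17, adjusted p from 0.0630 to 0.109). Itga1 passed, as lower, with library sizes from mapped reads and no TMM scaling (-0.53, adjusted p = 0.0282). With library sizes from mapped reads and no TMM scaling, 1 subunit was thus higher and 6 were lower.

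At 1 nM only Itgam was higher with 21h10 (log2 fold change 0.45 ± 0.060, adjusted p = 1.19e-05) and 6 subunits were lower, where 19.6% of all genes were higher and 18.1% lower. Itgae was the most reduced subunit (log2 fold change -2.32 ± 0.078, adjusted p = 5.74e-13, from 29.3 ± 0.337 to 5.92 ± 0.650 CPM, SD, n = 2), followed by Itgax (log2 fold change -2.04 ± 0.12, adjusted p = 5.51e-10) and Itga1 (log2 fold change -1.47 ± 0.23, adjusted p = 6.47e-05). Smaller differences were found for Itgal (-0.39), Itgb1 (-0.31) and Itga4 (log2 fold change -0.21 ± 0.056, adjusted p = 0.00726). The Itga4 call was lost when replicate 1 of mIL-21 1 nM or replicate 1 of 21h10 1 nM was left out (-0.13, adjusted p from 0.0676 to 0.107). Itgb7 (95% interval of the log2 fold change -0.09 to 0.14), Itgb2 (-0.06 to 0.13) and Itga2 (-0.53 to 0.13) did not pass.

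At 10 nM no subunit passed, and neither did almost any gene (0.00726% of all genes, or 1, with 1207 at an unadjusted p under 0.05). DESeq2 and limma also called no subunit. Itgae (log2 fold change -0.39 ± 0.13, adjusted p = 0.473, 95% interval -0.65 to -0.12) and Itgax (log2 fold change -0.31 ± 0.13, adjusted p = 0.545, -0.59 to -0.03) had lower values with 21h10 that did not pass after adjustment. For Itgb2 the interval was -0.16 to 0.16 and for Itgam -0.24 to 0.16.

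At 100 nM the mimic and the native cytokine parted again, now in 1 direction: 7 subunits were lower with 21h10 and 0 higher, where 4.02% of all genes were higher and 4.52% lower. Itgae (log2 fold change -1.81 ± 0.14, adjusted p = 6.98e-07) and Itgax (log2 fold change -1.65 ± 0.14, adjusted p = 2.69e-06) were again the most reduced. They were joined by Itga1 (log2 fold change -1.12 ± 0.26, adjusted p = 0.0156), Itgam (log2 fold change -1.08 ± 0.098, adjusted p = 3.43e-06), Itga4 (log2 fold change -0.87 ± 0.12, adjusted p = 0.000214), Itga2 (log2 fold change -0.77 ± 0.16, adjusted p = 0.00608) and Itgb7 (log2 fold change -0.74 ± 0.098, adjusted p = 0.000186). Itgal (95% interval -0.15 to 0.22), Itgb2 (-0.19 to 0.13) and Itgb1 (-0.36 to 0.01) did not pass. Both chains of the CD103 pair, and both of the pair of alpha 4 and beta7, were among the lower subunits at this dose. Neither chain of LFA-1 was. At 100 pM and 1 nM, by contrast, the LFA-1 chain Itgal was lower with 21h10 and Itgb7 was not. The Itga1 call was lost when replicate 1 of mIL-21 100 nM or replicate 1 of 21h10 100 nM was left out (-0.97 to -0.93, adjusted p from 0.118 to 0.144), and that of Itga2 when replicate 1 of mIL-21 100 nM or replicate 1 of 21h10 100 nM was left out (-0.78 to -0.68, adjusted p from 0.0506 to 0.0658).

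**Figure D4:**
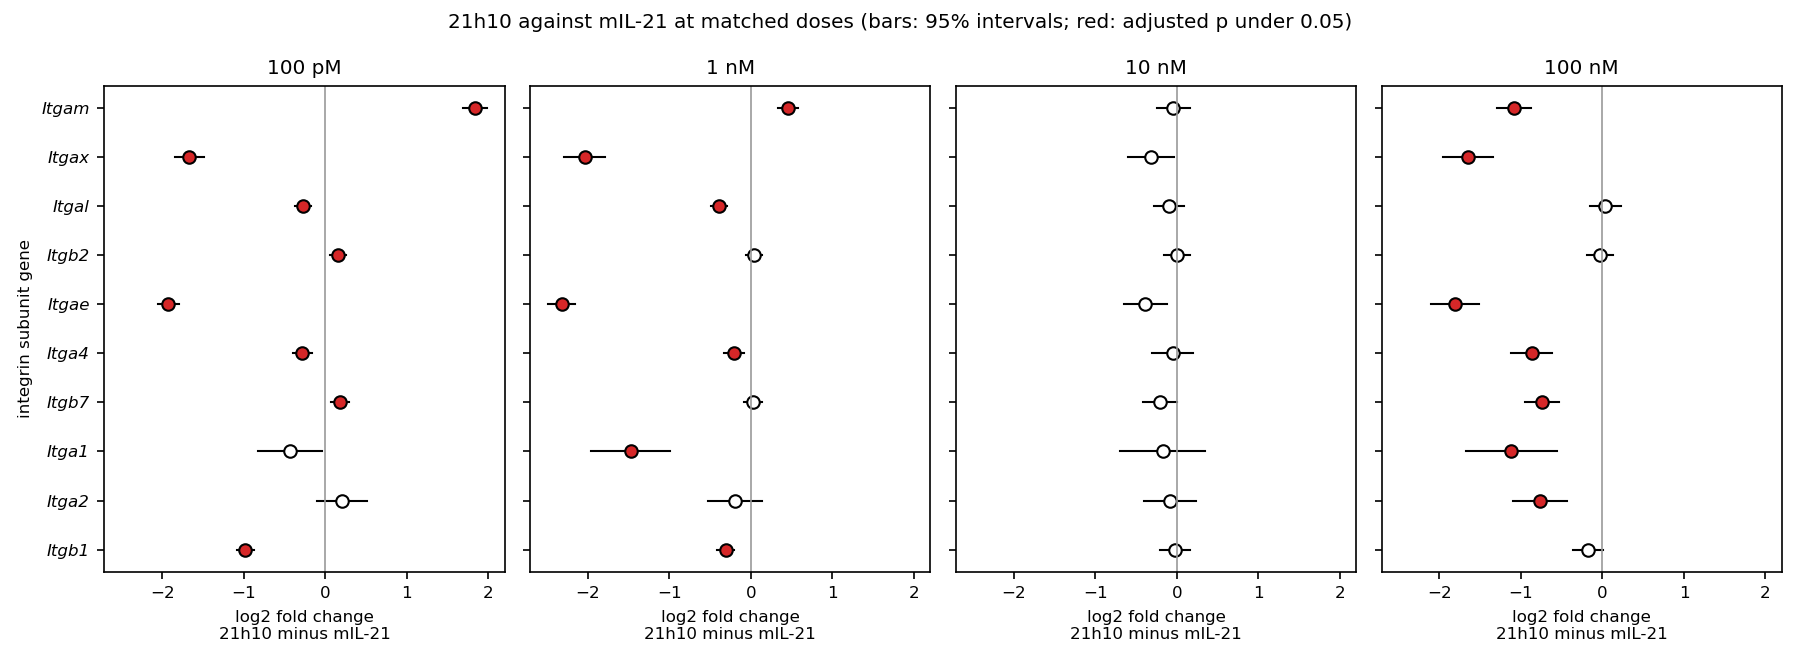
Log2 fold change between 21h10 and mIL-21 (positive where 21h10 is higher) for the 10 subunits at 4 matched doses, with 95% intervals, and red points for an adjusted p under 0.05. Itgam lies right of 0 at 100 pM (1.84) and 1 nM (0.45) and left of it at 100 nM (-1.08), Itgae and Itgax lie left of 0 at 100 pM, 1 nM and 100 nM, and no point is red at 10 nM.

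The lower dose of mimic was also set against the higher dose of native cytokine, 21h10 at 100 pM against mIL-21 at 1 nM. Of all genes, 0.737% passed, and of the 10 subunits 1, Itgae, which was lower with 21h10 (log2 fold change -0.37 ± 0.063, adjusted p = 0.00579). It was lost with limma on log2(RPKM + 1) (-0.30, adjusted p = 0.0968) and when either library of 21h10 100 pM was left out (-0.37 to -0.36, adjusted p from 0.0707 to 0.123). The 95% intervals of the other subunits lay between -0.20 and 0.19 for Itgam, Itgax, Itgal, Itgb2, Itga4, Itgb7 and Itgb1, and were wider for Itga1 (-0.81 to -0.02) and Itga2 (-0.25 to 0.37).

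Dose was compared within each cytokine. From 100 pM to 1 nM of mIL-21, 2 subunits rose and 5 fell (17.9% and 16.6% of all genes). Itgam rose (log2 fold change 1.91 ± 0.068, adjusted p = 1.27e-12), while Itgax (-1.66), Itgae (-1.55), Itgb1 (-1.02), Itga4 (-0.27) and Itgal (-0.25) fell. The second rise, that of Itgb2 (log2 fold change 0.14 ± 0.046, adjusted p = 0.0248), was lost without the filter on low counts (0.13, adjusted p = 0.0643), with limma on log2(RPKM + 1) (0.02, adjusted p = 0.753), with library sizes from mapped reads and no TMM scaling (0.02, adjusted p = 0.776) and when either library of unstimulated cells, replicate 1 of mIL-21 1 nM or either library of mIL-21 100 pM was left out (0.13 to 0.15, adjusted p from 0.0510 to 0.164). Itgb7 passed, as higher, when replicate 1 of mIL-21 1 nM was left out (0.15, adjusted p = 0.0492). With library sizes from mapped reads and no TMM scaling the split was 1 rise and 5 falls.

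From 100 pM to 1 nM of 21h10, 1 subunit rose and 6 fell (20.1% and 19.1% of all genes). The rise was that of Itgam (log2 fold change 0.53 ± 0.059, adjusted p = 1.49e-06), and the falls were those of Itgax (-2.03), Itgae (-1.95), Itga1 (-1.06), Itgal (-0.37), Itgb1 (-0.36) and Itga4 (-0.20). The Itga4 call was lost when replicate 1 of 21h10 1 nM or either library of 21h10 100 pM was left out (-0.20 to -0.12, adjusted p from 0.0531 to 0.0904). Itga2 passed, as lower, when replicate 2 of 21h10 1 nM was left out (-0.51, adjusted p = 0.0427).

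In experiment 2 no subunit passed between the doses of the native cytokine. From 10 to 100 nM of mIL-21, 0 subunits passed in edgeR and 0% of all genes (361 at an unadjusted p under 0.05), and DESeq2 and limma called no subunit either. From 10 to 100 nM of 21h10, 7 subunits fell and 0 rose (1.88% and 3.45% of all genes higher and lower). They were Itgax (log2 fold change -1.52 ± 0.15, adjusted p = 8.62e-06), Itgae (-1.44), Itgam (-1.11), Itga1 (-1.0002), Itga4 (-0.85), Itga2 (-0.68) and Itgb7 (-0.65). The Itga1 call was lost when either library of 21h10 10 nM or either library of 21h10 100 nM was left out (-1.22 to -0.81, adjusted p from 0.0770 to 0.227), and the Itga2 call with limma on log2(RPKM + 1) (-0.43, adjusted p = 0.0503) and when replicate 1 of 21h10 10 nM or either library of 21h10 100 nM was left out (-0.78 to -0.56, adjusted p from 0.0591 to 0.187).

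Whether the gap between the cytokines itself changed with dose was tested as an interaction. Between 100 pM and 1 nM it changed for 4 subunits (18.4% of all genes). The Itgam gap shrank, by a log2 difference of -1.38 ± 0.090, adjusted p = 1.93e-08, the Itgb1 gap narrowed (0.67 ± 0.070, adjusted p = 4.39e-06), and the gaps of Itgae (-0.40 ± 0.10, adjusted p = 0.00963) and Itga1 (-1.05 ± 0.30, adjusted p = 0.0200) widened downwards. Between 10 and 100 nM it changed for 4 subunits (0.922% of all genes), all towards lower values with 21h10, namely Itgae (-1.42 ± 0.19, adjusted p = 0.000765), Itgax (-1.33 ± 0.19, adjusted p = 0.00181), Itgam (-1.04 ± 0.14, adjusted p = 0.000679) and Itga4 (-0.82 ± 0.16, adjusted p = 0.0232). The difference of differences thus passed for Itgae and Itgam in both experiments.

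In the first of these tests the Itgae call was lost with limma on log2(RPKM + 1) (0.12, adjusted p = 0.433), with library sizes from mapped reads and no TMM scaling (-0.34, adjusted p = 0.0501) and when replicate 2 of 21h10 1 nM was left out (-0.28, adjusted p = 0.0885), and the Itga1 call with DESeq2 (-0.99, adjusted p = 0.0633) and when replicate 2 of mIL-21 1 nM, replicate 1 of mIL-21 100 pM, replicate 2 of 21h10 1 nM or replicate 2 of 21h10 100 pM was left out (-1.02 to -0.78, adjusted p from 0.0585 to 0.139). Itgb7 passed when replicate 1 of 21h10 1 nM was left out (-0.21, adjusted p = 0.0428) and Itgax with limma on log2(RPKM + 1) (0.33, adjusted p = 0.0365). In the second the Itgae call was lost with limma on log2(RPKM + 1) (-0.86, adjusted p = 0.0813), the Itgax call with limma on log2(RPKM + 1) (-0.78, adjusted p = 0.0884) and the Itga4 call with limma on log2(RPKM + 1) (-0.77, adjusted p = 0.0884) and when either library of mIL-21 10 nM, either library of mIL-21 100 nM, either library of 21h10 10 nM or replicate 1 of 21h10 100 nM was left out (-0.88 to -0.72, adjusted p from 0.0549 to 0.168). Itgb7 passed with DESeq2 (-0.53, adjusted p = 0.0146), without the filter on low counts (-0.56, adjusted p = 0.000618), in a fit of the compared groups alone (-0.54, adjusted p = 0.00738) and when either library of unstimulated cells was left out (-0.54, adjusted p = 0.00654).

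Genes around the integrins were read from lists, with named genes limited to the 4 largest log2 fold changes per list and dose among those past the threshold, and the value after each gene name below is its log2 fold change of 21h10 over mIL-21. Of 17 other integrin subunits listed, 12 could be tested in experiment 1 and 13 in experiment 2. Against unstimulated cells, 9 to 10 of 12 were higher and 1 lower in each treated group of experiment 1, where 38.3% to 40.2% of all genes were higher and 39.4% to 42.1% lower. In experiment 2, 3 to 5 of 13 were higher and 2 to 3 lower, where 22.5% to 25.2% of all genes were higher and 23.7% to 25.8% lower. Between the cytokines, the lists below are read against 19.6% of all genes higher and 19.0% lower with 21h10 at 100 pM, 19.6% and 18.1% at 1 nM, and 4.02% and 4.52% at 100 nM, and several of their counts lie near those shares. Between the cytokines at 100 pM, 3 of 12 tested were higher and 2 lower with 21h10, the largest being Itgad -1.74, Itga3 0.81, Itgav 0.21 and Itga6 0.20. Itgad rests on few reads and on sequence shared with Itgax. At 1 nM 2 of 12 tested were higher and 4 lower, with Itgad -1.70, Itgb4 -1.08, Itga10 -0.70 and Itgb3 -0.57. At 100 nM 2 of 13 tested were higher and 1 lower, with Itgb6 1.59, Itgb3 0.32 and Itga6 -0.30. The median log2 fold change of the list at 100 nM was -0.13, against -0.82 for the 10 subunits and a median near 0 for all genes.

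Integrins are switched on from inside the cell by talin, kindlin and the small GTPase Rap1, and their tails are linked to actin by adaptors. Of 22 such genes, all tested, 7 were higher and 5 lower with 21h10 than with mIL-21 at 100 pM, with Rasgrp2 -1.59, Cytip 0.49, Lims1 0.48 and Itgb1bp1 0.34. At 1 nM 4 were higher and 12 lower, with Rasgrp2 -1.30, Rap1a 0.70, Zyx -0.60 and Apbb1ip -0.45. At 100 nM 0 were higher and 2 lower, Rasgrp2 -0.54 and Cytip -0.27. Rasgrp2, an exchange factor that charges Rap1, was lower at all 3 of these doses. Its level fell from 75.1 ± 1.40 CPM with mIL-21 to 25.1 ± 2.38 CPM with 21h10 at 100 pM (SD, n = 2). Cytip, which restrains LFA-1 adhesion, was higher with 21h10 at 100 pM and lower at 100 nM.

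Of 14 integrin ligands, 10 could be tested. At 100 pM 3 were higher with 21h10 and 1 lower (Spp1 0.85, Icam2 -0.82, Thy1 0.20 and Icam1 0.16), and at 1 nM 2 were higher and 2 lower (Cdh1 -1.82, Spp1 1.12, Icam2 -0.60 and Icam1 0.32). At 100 nM 1 was higher and 1 lower (Cdh1 1.07 and Icam2 -0.46). Cdh1, the E-cadherin that alpha E binds, was thus lower with 21h10 at 1 nM and higher at 100 nM. Icam2, a ligand of LFA-1, was lower at all 3 doses.

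Of 11 genes of the tissue residence program tested beside the integrins, 5 were higher and 4 lower with 21h10 at 100 pM (Xcl1 -2.43, P2rx7 -1.02, Ahr 0.87 and Dusp6 -0.63) and as many in each direction at 1 nM (Xcl1 -2.16, Ahr 1.07, Cd101 -1.06 and P2rx7 0.91). At 100 nM 1 was higher and 1 lower (Rgs1 1.83 and Cd69 -0.60). Cd69, which holds cells in tissue by removing the egress receptor S1PR1 from the surface, was lower at 100 nM, as Itgae was. Ahr, a receptor for environmental ligands, was higher with 21h10 at both doses of experiment 1.

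Of 9 genes of circulation and egress tested in experiment 1, 0 were higher and 5 lower with 21h10 at 100 pM (Klf2 -1.60, Klf3 -0.31, Ly6c2 -0.26 and S1pr1 -0.26), and 3 were higher and 3 lower at 1 nM. The largest at 1 nM were Klf3 -0.61, Ccr7 0.37, Klf2 -0.31 and S1pr4 -0.30. Of 8 tested in experiment 2, 0 were higher and 5 lower at 100 nM (S1pr1 -0.99, Klf3 -0.75, Ccr7 -0.61 and S1pr4 -0.48 among them). Klf3 was lower at all 3 doses. In the TGF-beta pathway, which is known to induce Itgae, 4 of 11 genes were lower and 0 higher at 100 pM (Skil -0.52, Smad3 -0.49, Ski -0.45 and Tgfbr2 -0.30), 3 were lower and 2 higher at 1 nM (Tgfbr2 -0.44, Smad3 -0.27, Smurf2 0.26 and Tgfbr3 -0.24), and 1 was lower at 100 nM (Smad3 -0.60). Smad3, which carries the TGF-beta signal, was lower at all 3 doses. The counts do not sort these genes by whether they carry or restrain the signal, so they give no direction for the pathway. Their part in the Itgae values was not tested. At 10 nM 0 genes of any of these lists passed.

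Some calls of the listed genes were lost in another fit or without a library. At 100 pM of 21h10 against mIL-21, the Icam1 call was lost without the filter on low counts (0.16, adjusted p = 0.0509), with limma on log2(RPKM + 1) (0.05, adjusted p = 0.497), with library sizes from mapped reads and no TMM scaling (0.06, adjusted p = 0.528) and when either library of mIL-21 100 pM or either library of 21h10 100 pM was left out (0.14 to 0.17, adjusted p from 0.0573 to 0.129). That of Thy1 was lost with limma on log2(RPKM + 1) (0.09, adjusted p = 0.195), with library sizes from mapped reads and no TMM scaling (0.09, adjusted p = 0.200) and when either library of mIL-21 100 pM or replicate 1 of 21h10 100 pM was left out (0.19 to 0.21, adjusted p from 0.0554 to 0.0745). That of Itgav was lost with limma on log2(RPKM + 1) (0.099, adjusted p = 0.275), with library sizes from mapped reads and no TMM scaling (0.11, adjusted p = 0.203) and when replicate 1 of mIL-21 100 pM or replicate 2 of 21h10 100 pM was left out (0.20, adjusted p from 0.0747 to 0.0880). That of Itga6 was lost with limma on log2(RPKM + 1) (0.08, adjusted p = 0.321), with library sizes from mapped reads and no TMM scaling (0.101, adjusted p = 0.263) and when replicate 1 of mIL-21 100 pM or replicate 2 of 21h10 100 pM was left out (0.14 to 0.19, adjusted p from 0.0798 to 0.155). That of Klf3 was lost when replicate 2 of mIL-21 100 pM or replicate 2 of 21h10 100 pM was left out (-0.32 to -0.29, adjusted p from 0.0585 to 0.0737).

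At 1 nM of 21h10 against mIL-21, the Klf2 call was lost when replicate 2 of 21h10 1 nM was left out (-0.22, adjusted p = 0.123). That of S1pr4 was lost when replicate 2 of mIL-21 1 nM or replicate 2 of 21h10 1 nM was left out (-0.19, adjusted p from 0.0572 to 0.0686).

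At 100 nM of 21h10 against mIL-21, the Itgb3 call was lost with limma on log2(RPKM + 1) (0.22, adjusted p = 0.239), with library sizes from mapped reads and no TMM scaling (0.24, adjusted p = 0.173) and when either library of mIL-21 10 nM, either library of mIL-21 100 nM, either library of 21h10 10 nM or either library of 21h10 100 nM was left out (0.20 to 0.40, adjusted p from 0.0600 to 0.406). That of Itga6 was lost when either library of mIL-21 100 nM, either library of 21h10 10 nM or either library of 21h10 100 nM was left out (-0.34 to -0.28, adjusted p from 0.0556 to 0.188). That of Cytip was lost when either library of mIL-21 100 nM, either library of 21h10 10 nM or either library of 21h10 100 nM was left out (-0.32 to -0.23, adjusted p from 0.0501 to 0.271). That of Icam2 was lost when either library of mIL-21 100 nM or either library of 21h10 100 nM was left out (-0.53 to -0.41, adjusted p from 0.0882 to 0.262). That of S1pr4 was lost with limma on log2(RPKM + 1) (-0.53, adjusted p = 0.0809) and when either library of mIL-21 100 nM or either library of 21h10 100 nM was left out (-0.55 to -0.41, adjusted p from 0.0572 to 0.225). That of Ccr7 was lost when replicate 2 of 21h10 100 nM was left out (-0.51, adjusted p = 0.0873). That of Rasgrp2 was lost when replicate 2 of 21h10 100 nM was left out (-0.50, adjusted p = 0.0738).

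Profiles were compared over the 20 libraries as log2 CPM after subtracting the mean of each experiment, with Pearson's r over 10508 genes of at least 1 RPKM on average. The points share unstimulated libraries and scaling, so r is given as a description only. The nearest genes to Itgam were Mctp2 (r = 0.992) and Soat1 (0.991), to Itgb2 Selplg (r = 0.994) and Cacnb3 (0.992) and to Itgb7 Sun1 (r = 0.986) and Cd8a (0.982). Nearest to Itgae were Asap1 (r = 0.960) and Sidt1 (0.958), to Itgax Myo1f (r = 0.977) and Arhgef18 (0.977) and to Itgal Sh2d3c (r = 0.981) and Plekhg3 (0.961). Itgb1 was nearest to Tbc1d4 (r = 0.985) and Xcl1 (0.966), and Itga4 to Ap5m1 (r = 0.905) and Usp32 (0.894), the lowest values of the 10. Itga1 was nearest to Apol7e (r = 0.968) and Tnfrsf13c (0.966) and Itga2 to Plcl2 (r = 0.981) and Stk17b (0.973). Among the subunits themselves, Itgam and its beta chain Itgb2 had r = 0.970 and the neighbours Itga1 and Itga2 0.913. Itgam and Itga2, neither partners nor neighbours, had 0.943. For Itgal and Itgax r was 0.859, and for Itgam and Itgb1 -0.854. Other partners and neighbours were less alike, with 0.016 for Itgae and Itgb7, 0.246 for Itga4 and Itgb7 and 0.289 for Itgam and Itgax.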

How the data were processed

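RNA was sequenced by the authors on an Illumina NovaSeq from KAPA mRNA HyperPrep libraries of CD8+ T cells. Reads were mapped to mm10, the UCSC name of GRCm38, per the submitters' processing notes with TopHat2 2.0.11 and Bowtie2 2.2.6. The authors deposited 1 table per library with a raw count of reads on the exons of each RefSeq transcript and the RPKM value they computed from it. The tool that counted reads, its use of strand and the annotation version are not given in the sources used here. Such counts can be shared between overlapping or similar genes, which is stated where it touches a subunit.

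Each of the 23992 symbols was represented by its longest transcript. The counts were filtered with filterByExpr (least count 10, least total 15), scaled by TMM and tested with edgeR 4.0.16 (glmQLFit and glmQLFTest, R 4.3.3), in 1 fit per experiment with group as the factor and a Benjamini-Hochberg adjusted p under 0.05 over 13974 genes in experiment 1 and 13772 in experiment 2. The fits estimated a biological coefficient of variation of 4.32% in experiment 1 and 8.80% in experiment 2, and depth was between 40317113 and 110876981 mapped reads per library. The script was tested on simulated counts. The labels' WT was read as mIL-21. Alternatives were DESeq2 1.42.0, no filter on low counts, limma 3.58.1 on log2(RPKM + 1) (genes reaching 1 RPKM in 2 or more libraries), a replicate block, a fit of the compared groups alone, the most-read transcript, library sizes from mapped reads without TMM, and each library left out. Gene positions are from RefSeq (GRCm38.p6), and similar transcripts were searched with BLAST 2.17.0 at an identity of at least 90%. The subunits and lists were chosen with earlier results of these data known. All 10 subunits are named, of other lists at most 4 genes per list and matched dose by size of the log2 fold change, and for each subunit the 2 genes of most similar profile.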

Additional observations from a re-analysis of the deposited data

Results flagged for a closer look

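The gap between 21h10 and mIL-21 differed between doses for 6 subunits by the interaction test of edgeR (adjusted p under 0.05). In experiment 1 the log2 fold change at 1 nM minus that at 100 pM was -1.38 for Itgam, -1.05 for Itga1, -0.40 for Itgae and 0.67 for Itgb1. In experiment 2 the value at 100 nM minus that at 10 nM was -1.42 for Itgae, -1.33 for Itgax, -1.04 for Itgam and -0.82 for Itga4. The Itgam difference between the cytokines thus was 1.84 at 100 pM and 0.45 at 1 nM in experiment 1, and -0.04 at 10 nM and -1.08 at 100 nM in experiment 2. Groups of 2 libraries are too small for a search for single outlying libraries.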

How the results depend on the processing

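Of the 121 calls of a subunit in a comparison (of 190 pairs), 106 were kept in all 7 alternative fits that could be made, 15 were lost in at least 1, of which 6 only with limma, and 16 were lost without at least 1 library. Limma could not be fitted for 29 pairs, those of Itga1 in both experiments and of Itga2 in experiment 1, which missed its RPKM minimum. A group left with 1 library is assumed to vary like the others. The replicate block, with the duplicate number as a factor, gave 8, 7, 0 and 7 called subunits at the 4 matched doses, as without it. It changed no subunit's call. Over all genes, calls between the cytokines went from 5398 to 5164 with the block at 100 pM and from 1175 to 1345 at 100 nM. Correlations of deviations between equal numbers ran from -0.062 to 0.029 in experiment 1 and from -0.167 to 0.227 in experiment 2. These values cannot decide whether equal numbers mark paired libraries. Library sizes from mapped reads moved the median log2 fold change of all genes by over 0.1 in 7 of 19 comparisons, to as low as -0.32.

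With 21h10 at 100 pM against mIL-21 at 1 nM, limma called 0 subunits instead of 1, and leaving out libraries gave 0 to 1. The dose interaction called 2 to 5 subunits in experiment 1 without single libraries (4 with all), and in experiment 2 limma called 1 instead of 4. The Itgae interaction in experiment 1 reversed with limma (0.12 for -0.40). The cause was not tested. Other reversals were of differences not past the threshold. At 1 nM Itgb7 was -0.019 with limma and -0.018 with mapped-read sizes (-0.030 to 0.084 without single libraries), and Itgb2 -0.011 and -0.0099 (-0.0093 to 0.082). At 10 nM Itgb2 was -0.0035 with DESeq2, -0.0081 without the filter, -0.090 with limma and -0.091 with mapped-read sizes (-0.024 to 0.021), and without single libraries Itga4 ran from -0.11 to 0.0036, Itgb1 from -0.088 to 0.037 and Itga2 from -0.21 to 0.029. At 100 nM Itgal was -0.041 with limma and -0.041 with mapped-read sizes (-0.021 to 0.078), and Itgb2 ran from -0.097 to 0.027. Itgae with 21h10 at 100 pM against unstimulated cells was 0.012 in a fit of these groups alone (-0.050 to 0.00052 without single libraries).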
